A study of Mus musculus with 24 samples.

Results

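The genes described here are 7 components of the signalling pathway of leukemia inhibitory factor (LIF): the ligand Lif, the receptor chains Lifr and Il6st, the kinase Jak1, the transcription factor Stat3, the feedback inhibitor Socs3 and the kinase gene Pim1. They were listed by name, and all 7 were found among the 21909 gene symbols measured by RNAseq. The study compared the position of chromatin relative to the nucleolus, and gene expression, of embryonic stem cells of the mouse (ESCs) with neural progenitors derived from them (NPCs). RNAseq was available for 3 ESC and 3 NPC samples, each from a dish stated to be independent. The ESCs were of the E14 line and grew without feeder cells on gelatin, in 2i medium with N2 and B27 supplements, LIF at 1000 U per ml and the inhibitors CHIR99021 (3 µM, against GSK3β) and PD0325901 (1 µM, against MEK). The NPCs were made from ESCs as embryoid bodies in suspension over 8 days, in medium with 10% fetal calf serum and, for the last 4 days, 2 µM retinoic acid. No genetic change is named for these samples. The media of the NPCs are described without LIF and without the inhibitors, so the loss of LIF, the loss of the inhibitors, serum, retinoic acid and the change of cell type cannot be told apart in the comparison. The wording of the ESC protocol leaves unclear whether a second medium was also used, and only the 2i medium with LIF is described.

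LIF is a cytokine of the interleukin-6 family that binds LIFR and then gp130, the product of Il6st, and the kinases bound to these chains, JAK1 foremost, phosphorylate STAT3, which moves to the nucleus as a dimer and activates genes. Among the direct targets of STAT3 are Socs3, whose product binds gp130 and JAK kinases and shuts the signal down, and Pim1, which encodes a serine/threonine kinase that favours survival. In mouse ESCs LIF and STAT3 help to hold cells in the pluripotent state, whereas in neural precursors the related cytokines are known for promoting glial fates.

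Expression was given as RPKM, reads per kilobase of gene and per 1 M reads. The values were whole multiples of a step for each gene, from which whole reads were recovered for 14007 of the 14107 lines above 0 in all 6 samples (99.3%, within 0.002 reads). The implied libraries held 34.1, 33.7 and 30.8 M reads for the ESC replicates, in order, and 30.2, 27.3 and 32.3 M reads for the NPC replicates. The length by which reads were divided was the span of the gene with its introns, within 0.1%, for 91.9% of the recovered genes, and the exon length for 0.0577% of them. Long genes with long introns therefore had low RPKM values for the number of reads they held, Jak1 most of all among the 7, with a span of 112.9 kb and exons of 7.23 kb. For this reason levels of the pathway genes are compared with each other after rescaling to exon length, a step chosen after the data had been seen. The rescaling takes the counted reads as exonic. The methods of the study describe coverage of exons, but the share of exonic reads was not tested here. Genes picked from a list for the highest deposited RPKM need not have the highest exon-length level. The fold of 1 gene between samples does not depend on the length. Its log2 difference in the fits below does, because 1 is added to each RPKM, and so do the filter and the adjusted p. For Lifr that difference was −0.62 with deposited RPKM and −1.40 per exon length.

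ESC replicate 3 stood apart from the other samples. Across 7849 genes its log2(RPKM + 1) values correlated with those of ESC replicates 1 and 2 at r = 0.963 and r = 0.966, against r = 0.999 between ESC replicates 1 and 2 and at least 0.996 among the NPC replicates. The 1941 genes with the shortest spans lay above the other ESC replicates by a median log2 difference of 0.40, and the 1941 genes with the longest spans lay at −0.53. Its RPKM values also summed to 140366, against 104274 and 106146 in ESC replicates 1 and 2 and between 85575 and 86785 in NPCs. The fits described below with the filter, over all genes above 0 and on the exon-length scale were repeated without ESC replicate 3. For the pathway genes named, calls that changed are given below.

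The labels of the samples were checked against marker genes of the cell types that could be present. The 6 markers of pluripotent cells summed to 1647, 1635 and 3548 RPKM in the ESC samples and to 0.624, 0.303 and 0.283 RPKM in the NPC samples, with Dppa5a the highest in deposited RPKM. Pou5f1, the gene of OCT4, had 130.0, 135.6 and 202.1 RPKM in ESCs and at most 0.0651 RPKM in NPCs, and Zfp42, the gene of REX1, had 39.3, 39.1 and 44.3 RPKM in ESCs and at most 0.0195 RPKM in NPCs. The 6 markers of neural progenitors summed to 4.38, 3.8 and 3.70 RPKM in ESCs and to 43.7, 48.3 and 47.3 RPKM in NPCs, with Nes the highest in deposited RPKM and all 6 higher in every NPC sample. Pax6, a marker of radial glia, rose from at most 0.0167 RPKM in ESCs to 1.55, 1.42 and 1.67 RPKM in NPCs (log2 difference 1.33 ± 0.0428 SE, limma adjusted p = 6.23e-07), so both labels fitted their defining markers.

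Markers of other cell types were present in the NPC samples as well. The 5 fibroblast markers summed to at most 0.0787 RPKM in ESCs and to 44.0, 49.7 and 49.6 RPKM in NPCs. The collagen gene Col1a1 had the highest deposited RPKM of these, and Col3a1 the highest exon-length level in NPCs (79.2 against 60.7 for Col1a1). The 7 markers of mesoderm and endoderm summed to 1.22, 1.34 and 1.08 RPKM in ESCs and to 14.7, 16.1 and 15.6 RPKM in NPCs, with 5 of the 7 higher and 2 lower in every NPC sample. Gata6 had the highest deposited RPKM of these, and Gata4 the highest exon-length level in NPCs (110.0 against 34.0 for Gata6). The NPC samples thus held RNA of genes listed here as markers of lineages besides the neural one. Levels within these lists were uneven, with NPC means of 0.0258 RPKM for Dcn among the fibroblast markers and 0.0218 RPKM for Afp among those of mesoderm and endoderm. Which cells made this RNA was not measured. The 5 neuronal markers summed to 11.1, 12.2 and 14.5 RPKM in ESCs and to 6.86, 5.54 and 6.62 RPKM in NPCs, with Tubb3 the highest in deposited RPKM, but 3 of the 5 were higher in every NPC sample, among them Dcx, which was listed at 0 in every ESC sample, and 2 were lower. The 4 astrocyte markers summed to 0.517, 0.529 and 0.645 RPKM in ESCs and to 0.0563, 0.101 and 0.0541 RPKM in NPCs, with Aldh1l1 the highest in deposited RPKM and the only one lower in every NPC sample, while Aqp4 and S100b, at 0 in every ESC sample, were higher in every NPC sample. The 5 markers of blood and endothelium summed to 9.00, 9.79 and 8.58 RPKM in ESCs and to 3.77, 4.24 and 3.86 RPKM in NPCs, with Cd68 the highest in deposited RPKM and Ptprc at 0 in every NPC sample. Of these 5, 2 were higher and 2 lower in every NPC sample. The endothelial genes among them, named after their values were seen, went in opposite directions, Cdh5 from at most 0.00138 RPKM in ESCs to 1.32, 1.01 and 0.983 RPKM in NPCs and Pecam1 from 1.21, 1.17 and 0.929 RPKM to 0.496, 0.407 and 0.396 RPKM. In bulk RNA a change in the share of a cell type and a change of RNA per cell cannot be told apart, and the part of these lineages in the values of the pathway genes was not tested.

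Between NPCs and ESCs, limma was applied to log2(RPKM + 1) over the 7849 genes with at least 1 RPKM in at least 3 of the 6 samples, and 5509 genes had an adjusted p under 0.05, 70.2% of those tested. Of these, 2898 genes (36.9% of those tested) were higher and 2611 (33.3%) were lower in NPCs. Of the 7 genes, Il6st, Stat3, Socs3 and Pim1 passed the filter, and 3 of these 4, all but Il6st, were called, each lower in NPCs. Lif, Lifr and Jak1 had too few reads per kilobase of span to pass. In the fit over all 18401 genes above 0 in any sample, which called 62.4% of genes (39.4% higher and 22.9% lower in NPCs), 6 of the 7 were called, with Jak1 higher and the others except Il6st lower in NPCs. After rescaling to exon length all 7 passed the filter, and the same 6 genes were called in the same directions, with 72.7% of 11897 genes called (43.0% higher and 29.8% lower in NPCs). Without ESC replicate 3 Il6st was called as well, which made 4 of 4 genes with the filter (87.9% of all genes called) and 7 of 7 on the exon-length scale (88.7% of all genes called, 49.3% higher and 39.4% lower in NPCs). The fit over all genes above 0 without that replicate also called Il6st, and 72.6% of all genes (42.3% higher and 30.3% lower in NPCs). The median log2 difference over all genes tested was 0.02 on the deposited scale, 0.17 with median-ratio size factors and 0.45 with RPKM rescaled to a common sum, and the directions of the 7 genes held under both scalings except that of Il6st, which was not called and turned to 0.09 under the last.

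**Figure D1:**
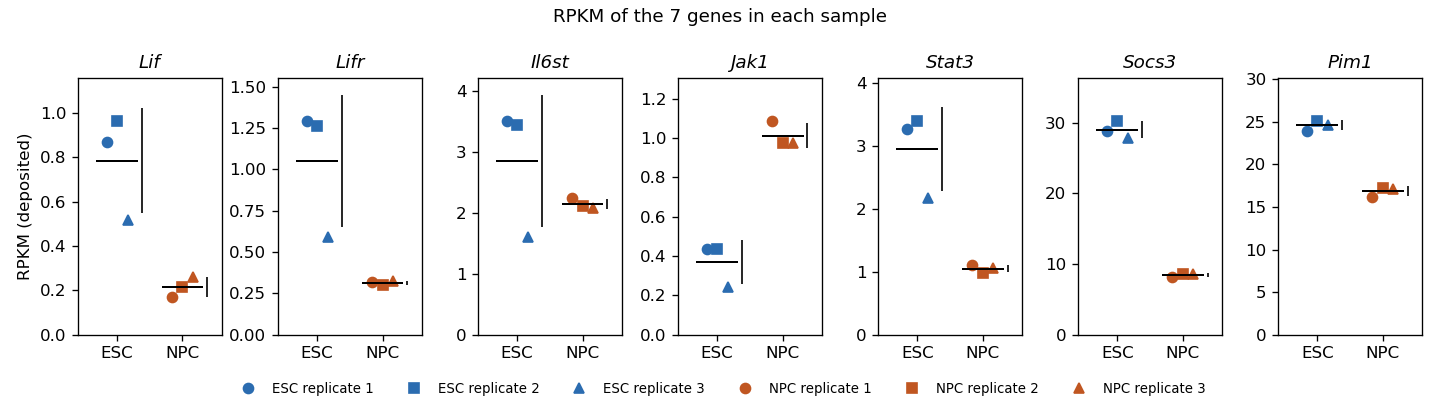
Deposited RPKM (vertical axes, each from 0 and on its own scale) of the 7 genes in the 3 ESC samples (blue) and the 3 NPC samples (orange), with a marker shape for each replicate, the mean as a horizontal line and 1 SD to either side as a vertical line. ESC replicate 3 (blue triangles) lies below ESC replicates 1 and 2 for Lif, Lifr, Il6st, Jak1 and Stat3 and close to them for Socs3 and Pim1, and the groups overlap only for Il6st.

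Lif, the ligand itself, lies at chr11:4257557-4272514 (GRCm38) on the plus strand. It had 0.872, 0.965 and 0.517 RPKM in ESC replicates 1 to 3 and 0.171, 0.216 and 0.259 RPKM in NPC replicates 1 to 3. All ESC samples were above all NPC samples, although ESC replicate 3 was at 0.563 of the mean of the other ESC samples. These values rested on 444, 487 and 238 reads in ESCs and 77, 88 and 125 reads in NPCs, the fewest of the 7 genes. The mean was 3.65-fold higher in ESCs (0.785 ± 0.237 RPKM, SD, n = 3) than in NPCs (0.215 ± 0.0440, n = 3), and the log2 difference was −0.55 in the fit over all genes above 0 (limma adjusted p = 0.00617) and −1.07 on the exon-length scale (limma adjusted p = 0.00141). The RNA measured here is the transcript made by the cells, not the recombinant protein added to the ESC medium.

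The other 7 ligands of the family differed widely. Osm, which encodes oncostatin M, another ligand that signals through gp130, had 7.87, 7.81 and 8.08 RPKM in ESCs and was listed at 0 in all 3 NPC samples, so no fold is given (log2 difference −3.16, limma adjusted p = 1.87e-07). Osm ends 16.5 kb before Lif begins, on the same strand, and on the exon-length scale its ESC level of 16.1 ± 0.294 (SD, n = 3) was above the 2.70 ± 0.813 of Lif. Clcf1, which encodes a cytokine that acts through the CNTF receptor, went the other way, from 0.0127, 0.0192 and 0.0176 RPKM in ESCs to 3.03, 2.93 and 2.92 RPKM in NPCs (log2 difference 1.96, limma adjusted p = 1.87e-07). Its ESC values rested on 4 to 6 reads a sample, and a gene model overlaps its exons on the same strand, so the source of its reads is uncertain. Ctf1, the gene of cardiotrophin-1, was at 0.764 to 1.01 RPKM in ESCs and 1.16 to 1.43 RPKM in NPCs (log2 difference 0.31, limma adjusted p = 0.00876). It shares 87 bases with Ctf2 on the opposite strand. Il6, Il11, Cntf and Ctf2 were at most 0.261 RPKM in any sample, overlapped between the groups and did not pass the test in the fit over all genes above 0. Osm thus fell, and Clcf1 and Ctf1 rose.

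Lifr encodes the chain that binds LIF with gp130 and lies at chr15:7090614-7197489 on the plus strand. It had 1.29, 1.26 and 0.589 RPKM in ESC replicates 1 to 3 and 0.319, 0.30 and 0.325 RPKM in NPC replicates 1 to 3. The groups did not overlap, and ESC replicate 3 lay between them, at 0.461 of the mean of the other ESC samples. The mean was 3.33-fold higher in ESCs, and 4.06-fold without ESC replicate 3. The log2 difference was −0.62 in the fit over all genes above 0 (limma adjusted p = 0.0159) and −1.40 on the exon-length scale (limma adjusted p = 0.0036, and 7.82e-09 without ESC replicate 3). In the fit over all genes above 0 the adjusted p rose above 0.05 when ESC replicate 2 or any of the NPC replicates was left out or RPKM was rescaled to a common sum, with a highest limma adjusted p of 0.0601 over 19 alternatives. The log2 difference was then −0.54 without ESC replicate 2 and −0.62, −0.61 and −0.63 without NPC replicate 1, 2 and 3. After the rescaling it was −1.05.

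Il6st encodes gp130, the chain shared by the whole cytokine family, and lies at chr13:112464070-112510086 on the plus strand. It had 3.51, 3.44 and 1.6 RPKM in ESC replicates 1 to 3 and 2.25, 2.12 and 2.09 RPKM in NPC replicates 1 to 3. ESC replicates 1 and 2 lay above all NPC samples and ESC replicate 3 below all of them, so the groups overlapped. With all samples the log2 difference was −0.24 (95% confidence interval −0.77 to 0.28, limma adjusted p = 0.343). Without ESC replicate 3 it was −0.51 (limma adjusted p = 1.15e-05), and over 21 alternatives it ranged from −0.64 to 0.09 with limma adjusted p from 3.65e-06 to 0.846. Whether Il6st differed between the cell types thus depended on 1 library.

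The balance of these receptor chains did not depend on that library. The log2 ratio of Lifr to Il6st RPKM was −1.44, −1.44 and −1.44 in ESC replicates 1 to 3 and −2.82, −2.82 and −2.68 in NPC replicates 1 to 3. The SD over the 3 ESC samples was 0.00214, although in ESC replicate 3 both genes were at 0.46 of the mean of the other ESC samples. An SD from 3 samples is itself uncertain, and the counting error of the ratio was not computed. Rescaled to exon length the ratio averaged −0.18 in ESCs, where the chains were near parity, and −1.52 ± 0.0794 (SD, n = 3) in NPCs, where Il6st exceeded Lifr. The ratio was lower in NPCs by a log2 difference of −1.33 (two-sided exact permutation p = 0.1, the smallest that 3 against 3 samples allow), and it was lower in 3 of 3 NPC samples. With 1 added to each RPKM, as in the fits, the difference was −0.38.

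The other receptor chains of the family moved in both directions. Cntfr, the chain that gives specificity for CNTF and CLCF1, had 0.00593, 0.00674 and 0.00574 RPKM in ESCs and 2.85, 2.75 and 3.13 RPKM in NPCs (log2 difference 1.96, limma adjusted p = 2.61e-07). Its ESC values rested on 7 to 9 reads a sample. Rescaled to exon length its NPC level of 41.4 ± 2.80 (SD, n = 3) was above those of Il6st and Lifr in the same samples. With deposited RPKM the order was the same but Cntfr and Il6st were closer, with NPC means of 2.91 for Cntfr, 2.15 for Il6st and 0.315 for Lifr. Il6ra, the chain for interleukin-6, had 0.866, 0.930 and 0.620 RPKM in ESCs and 0.0263, 0.0164 and 0.0132 RPKM in NPCs (exon-length log2 difference −2.32, limma adjusted p = 5.52e-06). Il11ra1, the chain for interleukin-11, begins 2.90 kb beyond Cntfr on the opposite strand and had 0.0224, 0.0196 and 0.0309 RPKM in ESCs and 0.498, 0.470 and 0.421 RPKM in NPCs (exon-length log2 difference 2.57, limma adjusted p = 6.54e-07), but 6 other genes overlap its annotated span, 1 of them in exons on the opposite strand. Osmr, the oncostatin M chain and the neighbour of Lifr, was at most 0.0103 RPKM in any sample. On the exon-length scale the receptor chains for CNTF and IL-11 thus rose, and those for LIF and IL-6 fell.

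Jak1 encodes the kinase that is central to signalling by gp130 and lies at chr4:101152367-101265282 on the minus strand. It had 0.437, 0.436 and 0.243 RPKM in ESC replicates 1 to 3 and 1.09, 0.975 and 0.975 RPKM in NPC replicates 1 to 3. Of the 7 genes it was the only one higher in NPCs, and its groups did not overlap. The mean was 2.72-fold higher in NPCs, and 2.32-fold without ESC replicate 3, with 845 to 1681 reads in ESCs and 3002 to 3703 reads in NPCs. The log2 difference was 0.56 in the fit over all genes above 0 (limma adjusted p = 0.00125) and 1.34 ± 0.206 SE on the exon-length scale (limma adjusted p = 0.00109), and the call held in each of 19 alternatives, with a highest limma adjusted p of 0.00837. The exons of Jak1 overlap those of Raver2 on the opposite strand, and as the sources do not settle whether strand was used in counting, reads of the overlap cannot be told apart.

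The other JAK kinases did not move together. Jak2 rose from 0.157, 0.147 and 0.122 RPKM in ESCs to 0.842, 0.799 and 0.762 RPKM in NPCs (exon-length log2 difference 1.98, limma adjusted p = 3.2e-06). Jak3, a kinase known from lymphocytes, fell from 8.14, 8.88 and 5.02 RPKM in ESCs to 2.96, 3.88 and 3.89 RPKM in NPCs (log2 difference −0.84, limma adjusted p = 0.01), although Insl3 overlaps its exons on the same strand. Tyk2 fell from 2.19, 2.3 and 1.28 RPKM in ESCs to 0.921, 1.08 and 1.09 RPKM in NPCs (log2 difference −0.51, limma adjusted p = 0.0197). The calls of Jak3 and Tyk2 were lost with RPKM rescaled to a common sum, at limma adjusted p of 0.177 and 0.308. That of Tyk2 was also lost with median-ratio size factors (limma adjusted p = 0.0529) and when any sample but ESC replicate 3 was left out, at up to 0.0756. As a share of the exon-length level summed over the 4 kinases, Jak1 made up 17.5, 16.5 and 16.0% in ESC replicates 1 to 3 and 43.8, 38.5 and 38.9% in NPC replicates 1 to 3. Jak3 led in ESCs with a mean of 56.4 ± 0.882% (SD, n = 3), and Jak1 led in NPCs with a mean of 40.4 ± 2.98% (SD, n = 3). With deposited RPKM Jak3 led in both, at 75.1 ± 0.536% in ESCs and 55.5 ± 3.92% in NPCs (SD, n = 3 each). The share of Jak1 was then 3.79 ± 0.190% in ESCs and 15.9 ± 2.44% in NPCs (SD, n = 3 each). The rise of its share thus held on both scales, and its lead in NPCs only per exon length.

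Stat3, the transcription factor of the pathway, lies at chr11:100885098-100939540 on the minus strand. It had 3.28, 3.41 and 2.18 RPKM in ESC replicates 1 to 3 and 1.10, 0.991 and 1.06 RPKM in NPC replicates 1 to 3. All ESC samples were above all NPC samples, and ESC replicate 3 was the lowest of the ESC samples. Its mean was 2.81-fold higher in ESCs (2.96 ± 0.672 RPKM, SD, n = 3, against 1.05 ± 0.0565, n = 3). The log2 difference was −0.93 ± 0.132 SE (limma adjusted p = 0.00083), or −1.08 without ESC replicate 3, and Stat3 was called in each of 21 alternatives with limma adjusted p of at most 0.0228. The values rested on 3657 to 6254 reads in ESCs and 1471 to 1861 reads in NPCs. Stat3 overlaps Stat5a at its end by 72 bases on the opposite strand.

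Of the other 6 STAT genes, Stat2 and Stat6 passed the filter and both fell. Stat6, known from interleukin-4 signalling, had 2.25, 2.20 and 2.54 RPKM in ESCs and 0.843, 0.812 and 0.817 RPKM in NPCs (log2 difference −0.87, limma adjusted p = 2.37e-05). Stat2, a factor of the interferon response, had 3.20, 3.30 and 1.90 RPKM in ESCs and 1.49, 1.78 and 1.81 RPKM in NPCs (log2 difference −0.47, limma adjusted p = 0.0375), and it was no longer called without the filter, under either scaling or when any sample but ESC replicate 3 was left out, at limma adjusted p of up to 0.521. In the fit over all genes above 0 Stat2 was called without ESC replicate 3 (limma adjusted p = 0.00075, against 0.0564 with all samples). Stat5b, which lies 34.4 kb from Stat3 on chromosome 11, rose on the exon-length scale, from 0.171, 0.175 and 0.0877 RPKM in ESCs to 0.786, 0.780 and 0.805 RPKM in NPCs (exon-length log2 difference 1.99, limma adjusted p = 6.28e-05). Stat5a, between them, was at 0.201 to 0.272 RPKM in ESCs and 0.226 to 0.264 RPKM in NPCs, with overlapping groups. Stat4 had at most 81 reads in any sample and fell in the fit over all genes above 0 (limma adjusted p = 4.45e-05). The 3 STAT genes at 1 locus thus differed in direction, with Stat3 lower and Stat5b higher in NPCs.

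The share of Stat3 in the RPKM of the 7 STAT genes was 35.1, 35.8 and 30.7% in ESC replicates 1 to 3 and 24.2, 21.3 and 22.0% in NPC replicates 1 to 3. Every ESC sample was above every NPC sample. The mean fell by 11.4 percentage points (two-sided exact permutation p = 0.1, the smallest possible), from 33.9 ± 2.80% to 22.5 ± 1.51% (SD, n = 3 each). On the exon-length scale Stat3 had the highest mean share of the 7 in ESCs, at 40.6 ± 3.06% (SD, n = 3). Stat5b had the highest on that scale in NPCs, at 36.9 ± 0.247%, with Stat3 at 22.2 ± 1.26% (SD, n = 3 each). With deposited RPKM Stat2 had the highest mean share in NPCs, at 36.2 ± 3.02%, and Stat5b had 16.9 ± 0.282% (SD, n = 3 each). The leading gene in NPCs thus depended on the scale.

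Socs3, the feedback inhibitor induced by STAT3, lies at chr11:117966079-117970047 on the minus strand. It had 28.8, 30.3 and 27.9 RPKM in ESC replicates 1 to 3 and 8.11, 8.55 and 8.65 RPKM in NPC replicates 1 to 3. The groups were far apart and ESC replicate 3 lay close to the other ESC samples. Its mean was 3.43-fold higher in ESCs (29.0 ± 1.20 RPKM, SD, n = 3, against 8.44 ± 0.290, n = 3). The log2 difference was −1.67 ± 0.0861 SE (limma adjusted p = 5.44e-06), and it lay between −1.77 and −1.34 in 21 alternatives, with limma adjusted p of at most 0.000389. Reads numbered 3403 to 4049 in ESCs and 925 to 1109 in NPCs. No other annotated gene overlaps it.

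Of the 14 other inhibitors, 11 passed the filter, of which 3 rose, 5 fell and 3 did not pass the test, so 8 of 11 were called beside 70.2% of all genes. Their median log2 difference was −0.28, against 0.02 over all genes tested, but on the exon-length scale 13 passed, 6 rose and 5 fell (72.7% of all genes called, 43.0% higher and 29.8% lower), with a median of 0.13 against 0.20 over all genes. Without ESC replicate 3 the exon-length counts were 6 and 6, beside 88.7% of all genes called (49.3% higher and 39.4% lower). The median was then −0.13 against 0.13 over all genes, so its sign depended on that library. On the exon-length scale it lay below the median of all genes with and without that library. Without ESC replicate 3 Pias3 was also called lower (log2 difference −0.52, limma adjusted p = 5.3e-05, against −0.28 and 0.251 with all samples and up to 0.853 over alternatives). Socs5, a member of the SOCS family with a long N-terminal region, had the largest rise, from 0.278, 0.257 and 0.204 RPKM in ESCs to 1.16, 1.13 and 1.14 RPKM in NPCs (log2 difference 0.78, limma adjusted p = 3.04e-06). Ptpn6, the gene of the tyrosine phosphatase SHP-1, had the largest fall, from 1.79, 1.82 and 1.84 RPKM in ESCs to 0.241, 0.279 and 0.272 RPKM in NPCs (log2 difference −1.16, limma adjusted p = 6.15e-07). Pias4, a SUMO ligase of the PIAS family, had the highest mean deposited RPKM of the list, though not the highest exon-length level, with 4.61, 4.91 and 5.16 RPKM in ESCs and 3.16, 3.83 and 3.88 RPKM in NPCs. Its call (log2 difference −0.35, limma adjusted p = 0.0149) was lost under both scalings, at limma adjusted p of up to 0.949, and without NPC replicate 1, at 0.0527.

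The 5 adaptors, which link the receptor to the RAS and MAP kinase branch, all passed the filter, and 2 rose, 1 fell and 2 did not pass the test, so 3 of 5 were called beside 70.2% of all genes. Without ESC replicate 3 Grb2 was also called lower (log2 difference −0.21, limma adjusted p = 0.000613, against −0.16 and 0.0559 with all samples and up to 0.633 over alternatives). Ptpn11, the gene of the phosphatase SHP2, had the largest rise, from 1.96, 2.02 and 1.06 RPKM in ESCs to 3.44, 3.48 and 3.58 RPKM in NPCs (log2 difference 0.77, limma adjusted p = 0.00443). Gab1, a docking protein, fell from 2.88, 2.79 and 2.09 RPKM in ESCs to 1.87, 1.46 and 1.46 RPKM in NPCs (log2 difference −0.46, limma adjusted p = 0.0115), a call lost under both scalings, at limma adjusted p of up to 0.418, and without NPC replicate 2 or 3, at up to 0.0517. Shc1, an adaptor that recruits GRB2, had the highest mean deposited RPKM, though not the highest exon-length level in ESCs, with 12.4, 13.0 and 6.64 RPKM in ESCs and 19.1, 17.0 and 17.4 RPKM in NPCs. Shc1 rose (log2 difference 0.74, limma adjusted p = 0.0307). Without NPC replicate 1, 2 or 3 its log2 difference was 0.69, 0.77 and 0.75, but the call was lost, at limma adjusted p of up to 0.1. Without ESC replicate 3 the difference fell to 0.46 and Shc1 was called (limma adjusted p = 0.000248).

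Pim1, a kinase gene induced by STAT3, lies at chr17:29490753-29496112 on the plus strand. It had 24.0, 25.1 and 24.7 RPKM in ESC replicates 1 to 3 and 16.2, 17.2 and 17.1 RPKM in NPC replicates 1 to 3. The groups did not overlap, and the spread within each was small beside the gap between them. The mean was 1.46-fold higher in ESCs (24.6 ± 0.577 RPKM, SD, n = 3, against 16.9 ± 0.567, n = 3), the smallest fold of the 6 called genes. The log2 difference was −0.52 ± 0.0864 SE (limma adjusted p = 0.00184). With RPKM rescaled to a common sum it was −0.12 (limma adjusted p = 0.453), against a median of 0.45 over all genes, and Pim1 was called in the other 20 alternatives. Set against the median of all genes, Pim1 lay at −0.54 as deposited and at −0.57 after that rescaling. An antisense gene overlaps exons of Pim1, and reads of the overlap cannot be told apart without strand.

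The 11 other genes known as targets of LIF or STAT3 in ESCs all passed the filter and all were called, 8 lower and 3 higher in NPCs, beside 70.2% of all genes called (33.3% lower and 36.9% higher), with a median log2 difference of −1.03 against 0.02 over all genes tested. Myc had the largest rise, from 1.31, 1.49 and 1.49 RPKM in ESCs to 5.19, 6.15 and 5.66 RPKM in NPCs (log2 difference 1.45, limma adjusted p = 9.98e-06). Mcl1, an inhibitor of apoptosis, had the highest mean deposited RPKM, at 69.6, 65.9 and 78.4 RPKM in ESCs and 47.7, 45.3 and 43.0 RPKM in NPCs (log2 difference −0.64, limma adjusted p = 0.003, and 0.0917 with RPKM rescaled to a common sum). The other genes that rose, named here after their values were seen, were Zfp36, which encodes a protein that destabilizes mRNAs and went from 1.88 to 3.23 RPKM in ESCs to 8.48 to 9.49 RPKM in NPCs, and Junb, a subunit of AP-1, at 3.72 to 4.01 RPKM in ESCs and 4.21 to 6.09 RPKM in NPCs. The call of Junb (limma adjusted p = 0.041) was lost without ESC replicate 1 or 2 or NPC replicate 2 or 3, at limma adjusted p of up to 0.139. In the fit over all genes above 0 Junb was called with all samples (limma adjusted p = 0.0495) and not without ESC replicate 3 (limma adjusted p = 0.0936). The call of Pim3, a kinase gene related to Pim1, also named after its values were seen (log2 difference −0.89, limma adjusted p = 0.0188), was lost under both scalings, at limma adjusted p of up to 0.259, and without ESC replicate 1 or 2 or NPC replicate 1 or 2, at up to 0.0749. Genes of this list thus moved in both directions. A further 3 genes that fell, also named after their values were seen, encode pluripotency factors: Klf4 went from 33.2 to 50.3 RPKM in ESCs to 1.92 to 2.06 RPKM in NPCs, Klf5 from 3.27 to 8.00 to at most 0.239 RPKM, and Tfcp2l1 from 8.92 to 23.0 to at most 0.0522 RPKM. ESC replicate 3 had the lowest ESC value of each of these 3 genes, and all 3 were called with and without it.

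In all, 35 of the 51 other pathway genes passed the filter, and 30 of these were called, 11 higher and 19 lower in NPCs, beside 70.2% of all genes (36.9% higher and 33.3% lower), with a median log2 difference of −0.46 against 0.02 over all genes tested. With RPKM rescaled to a common sum 22 were called, 11 in each direction, beside 5115 of all 7849 genes, and 68.9% of all called genes were higher in NPCs against 52.6% as deposited. That rescaling multiplied RPKM by 7.12 to 11.7, so the added 1 also weighed less, and these changes cannot be told apart in it. Median-ratio size factors, which were 0.921 to 1.09, gave 62.0% higher among all called genes, and 11 higher and 14 lower among the other pathway genes. On the exon-length scale 41 passed the filter, and 17 were higher and 20 were lower in NPCs, beside 72.7% of all genes called (43.0% higher and 29.8% lower).

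**Figure D2:**
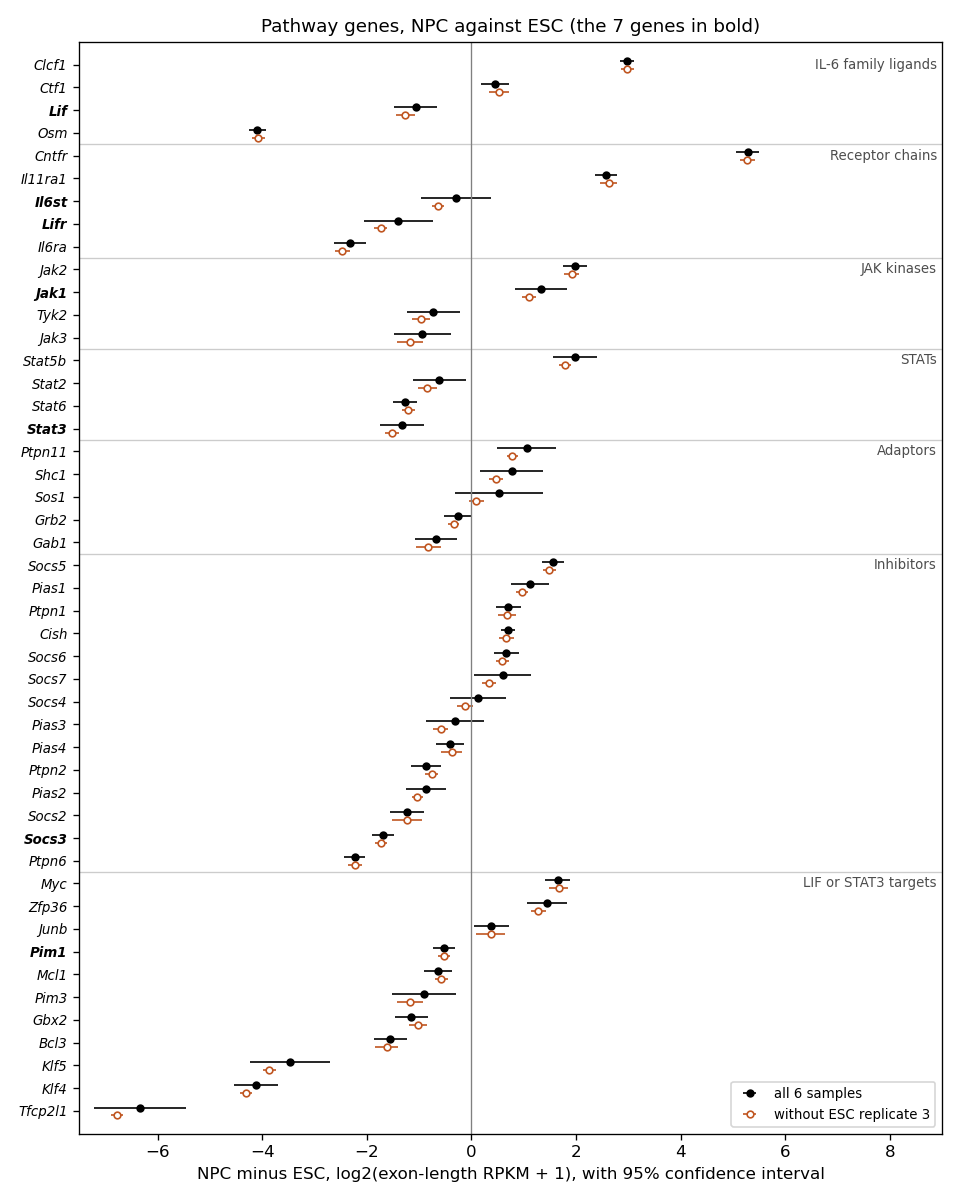
Log2 difference of NPC minus ESC (horizontal axis, log2 of exon-length RPKM + 1) for pathway genes that passed the filter on the exon-length scale, grouped by role, with 95% confidence intervals from limma for all 6 samples (black, filled) and without ESC replicate 3 (orange, open). The 7 genes are in bold. Of these, 6 keep clear of 0 with all samples, and the interval of Il6st reaches across 0 with all samples and not without ESC replicate 3.

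The order of the 7 genes by exon-length level differed between the cell types. In ESCs Socs3 (39.8 ± 1.65, SD, n = 3) and Pim1 (38.8 ± 0.909) overlapped at the top, followed by Stat3 (16.9 ± 3.8), Il6st (11.8 ± 4.49), Lifr (10.4 ± 3.95), Jak1 (5.81 ± 1.74) and Lif (2.70 ± 0.813). In that series the neighbours from Stat3 down to Jak1 overlapped across samples only through ESC replicate 3, and within each ESC sample these 4 genes kept that order, whereas Pim1 lay clear of Stat3 and Jak1 clear of Lif. In NPCs the order was Pim1 (26.6 ± 0.893), Jak1 (15.8 ± 1.02), Socs3 (11.6 ± 0.398), Il6st (8.92 ± 0.352), Stat3 (6.01 ± 0.323), Lifr (3.12 ± 0.131) and Lif (0.740 ± 0.151), with no overlap between neighbours. Jak1 thus stood in the sixth place in ESCs and in the second in NPCs, and Stat3 in the third and in the fifth.

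For each gene that passed the filter, the gene outside the pathway lists with the most similar log2(RPKM + 1) over the 6 samples was found. As the samples form 2 groups, similarity mainly reflects the gap between the groups and the place of ESC replicate 3, and many genes come close. Sin3a was closest to Il6st (Pearson r = 0.999) with 4.40, 4.39 and 2.5 RPKM in ESCs and 3.23, 3.05 and 3.05 RPKM in NPCs, and it shared the low value in ESC replicate 3. Plekhm1 was closest to Stat3, Nol9 to Socs3 and Tbrg4 to Pim1, each with r of at least 0.999. Of the 7849 genes, 41 reached r of 0.99 with Il6st, 168 with Stat3, 499 with Socs3 and 280 with Pim1.

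Nucleolus-associated domains (NADs) were mapped in the same cell types by Nucleolar-DamID, in which a bacterial methylase (Dam) carried to the nucleolus marks nearby DNA. The cells for this carried a transgene at Rosa26 for histone H2B fused to Dam, with or without a nucleolar signal, switched on by doxycycline and Shield1, so they differed in genotype and treatment from the RNAseq samples as labelled. None of the 7 genes overlapped 1 of the 1769 ESC NADs or the 1447 NPC NADs by 1 base or more. Over all 21402 placed genes, 27.1% overlapped a NAD in ESCs and 21.6% in NPCs. The shortest distance was that of Lif, 27.9 kb from the ESC NAD at chr11:4300370-4599887, and the NPC NAD nearest to Lif was 226.4 kb away. Il6st lay 90.0 kb and Lifr 204.2 kb from an ESC NAD, and Socs3 lay 3066 kb from one. The lists have no replicate values, so the distances carry no error.

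The promoters of the 7 genes were searched for the palindrome that STAT dimers are known to bind, TTCNNNGAA, and for the wider form with 4 bases between TTC and GAA. Windows from RefSeq (GRCm38.p6) reached from 250 bases before to 50 bases after each start. Of 32851 windows of all genes, 8.30% held TTCNNNGAA and 6.95% held the wider form. All 7 genes had a window and only Socs3 held TTCNNNGAA, 154 bases before its start, while none held the wider form. Of the 58 pathway genes 44 had a window, 4 of these held TTCNNNGAA and 5 held the wider form, beside 9.55% and 8.01% of all 27025 genes. The stretch before Socs3 is shown because it held the only match among the 7 genes. It lies at chr11:117969452-117969616 on the minus strand, in no annotated exon but within an intron of a longer noncoding transcript of Socs3, and capitals mark the motif.
Socs3: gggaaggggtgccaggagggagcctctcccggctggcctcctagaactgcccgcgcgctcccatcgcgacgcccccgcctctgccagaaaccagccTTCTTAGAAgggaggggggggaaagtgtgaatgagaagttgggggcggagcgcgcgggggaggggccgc

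The other pathway genes with TTCNNNGAA, named after the search, were Gab1, Zfp36 and Cish, an inhibitor known as a STAT5 target. Cish held 2 sites, at its start and 11 bases after it. The first of these and the site of Zfp36 17 bases before its start are shown for comparison with that of Socs3, with capitals for that motif, at chr9:107296649-107296677 (plus strand) and chr7:28379227-28379255 (minus strand).
Cish: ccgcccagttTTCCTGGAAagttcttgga
Zfp36: acagcctgacTTCTGCGAAccgacagtcg
Cish was at 0.317, 0.272 and 0.202 RPKM in ESCs and 1.03, 0.950 and 1.11 RPKM in NPCs (exon-length log2 difference 0.71, limma adjusted p = 3.21e-05), and Zfp36 rose as well, whereas Socs3 and Gab1 fell. A match of letters is not a measured site, and binding was not measured here.

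Several genes share bases with others. Exons of Il6ra, Tyk2, Stat6, Gab1, Ptpn6, Pias3, Cish, Zfp36 and Junb overlap those of genes on the opposite strand, as for Jak1, Stat3 and Pim1. The same holds for the markers Pou5f1, Gata6 and Aldh1l1, and exons of Stat4, Tfcp2l1, Aldh1l1 and Col3a1 overlap a gene on the same strand. Their values are uncertain to the extent of these overlaps, because the use of strand in counting is not known. The comparison has 3 dishes for each cell type from 1 cell line, and RNA levels give no measure of phosphorylated STAT3, so signalling itself was not measured.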

How the data were processed

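The authors filtered rRNA reads, aligned RNAseq reads to mm10 with STAR and deposited RPKM per gene for each sample. Each deposited NAD carries a score of the authors, and only positions were used here. Bowtie2 2.3.4.3 and Subread 1.4.6-p4 are named in the submitters' processing notes. The labels name a kit without strand and the methods a stranded kit, and the use of strand in counting is not given in the sources used here. Exact duplicate lines (114 of 22064) were dropped. Genes with at least 1 RPKM in at least 3 of 6 samples were fitted with limma 3.58.1 in R 4.3.3 (lmFit, eBayes with trend) on log2(RPKM + 1), 3 ESC against 3 NPC samples, with Benjamini-Hochberg adjustment over all genes tested and a threshold of 0.05, so a difference understates the change of low genes. Exon lengths and positions came from GENCODE M21, and other steps used Python 3.11.15, numpy 2.4.6 and pandas 2.3.3. Single values were compared by exact permutation over samples. The members and lists were chosen with earlier results of these data known. Named, with some left out, were the 7 genes, all ligands, receptor chains, kinases and STATs, the called gene with the largest rise, the called gene with the largest fall and the gene with the highest mean of each other list, the closest gene to each member and the most abundant gene of each marker list with Pou5f1, Zfp42 and Pax6.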

Additional observations from a re-analysis of the deposited data

How the results depend on the processing

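Of the 7 genes, Lif, Jak1, Stat3 and Socs3 kept their direction and call in each alternative (19, 19, 21 and 21), Pim1 in 20 of 21 and Lifr in 14 of 19. Without the filter, where more genes are tested, 11477 genes and 6 of the 7 were called, and per exon length, chosen after seeing the data, 8652 genes and 6 of the 7. Leaving out 1 library at a time, 4622 to 6897 genes and 3 to 4 of the 4 members tested were called, and per exon length 7467 to 10558 genes (8402, 8277 and 10558 without ESC replicate 1, 2 and 3) and 6 to 7 of the 7. Of the other pathway genes, 30 of 35 tested were called, beside 70.2% of all genes. Over all alternatives the lowest count was 22 of 35, with RPKM rescaled to a common sum, beside 5115 of all 7849 genes. The highest was 39 of 41, per exon length without ESC replicate 3, beside 88.7% of all genes. The receptor ratio difference was −0.38 with RPKM + 1 and −1.38 to −1.31 leaving out 1 library, and the Stat3 share difference −7.57 and −13.0 to −10.4, or −18.5 per exon length. Directions reversed for genes that were not called with all samples, and the cause was not tested: with RPKM rescaled to a common sum Il6st (0.0944), Grb2 (0.144) and Pias3 (0.0787); leaving out 1 library Il6 (−0.00079 without ESC replicate 1 or 3, −0.00207 without NPC replicate 1), Il11 (−0.00432 without ESC replicate 1, −0.00428 without NPC replicate 3), Cntf (−0.00953 without ESC replicate 3), Ctf2 (−0.0056 without ESC replicate 2), Stat5a (−0.0121 without ESC replicate 3), Socs1 (−0.0727 to 0.0988) and Socs4 (−0.105 to 0.229, and −0.129 without ESC replicate 3 per exon length). Replicate numbers do not pair the samples (correlations of deviations of 0.114, −0.0821 and 0.0327 for equal numbers). With a replicate block 5224 genes and 3 of the 4 members tested were called, and Junb was not (limma adjusted p = 0.0605, over alternatives to 0.154).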
